A study of Arabidopsis thaliana with 18 samples.

Results

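The genes described here are 104 of 22093 loci in Arabidopsis root tips that were high in mock cut tips at 6 h and much less so at 3 h, each against mock uncut tips. They were chosen by their levels in the mock libraries. CPM is a locus's count scaled to the library's total of reads on genes, and a group level is the mean of log2(CPM + 1). A member had its lowest mock cut 6 h library above its highest mock uncut library and a 6 h difference of at least 1.5. Its 3 h difference was under a fraction of 0.5 of the 6 h difference. At most 200 loci with the largest 6 h difference would have been taken, and 104 met the criteria. The mock values that chose the members are given as a description, with no test.

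The study treated root tips of 7-day-old seedlings with L-Kyn (L-kynurenine), which inhibits the aminotransferases that make auxin precursor from tryptophan, and cut some of the meristems. The cut lay 120 µm above the slowly dividing organiser of the root stem cells, the quiescent centre, and the L-Kyn dose was 100 µM. Counts came from 3′ end sequencing of 18 libraries in 7 groups. Of the L-Kyn libraries, 2 were cut tips at 3 h, 3 were cut tips at 6 h, 3 were uncut tips at 3 h and 2 were uncut tips at 6 h. Of the mock libraries, 3 were cut tips at 3 h, 2 were cut tips at 6 h and 3 were uncut tips with no hours given. Hours count from the cut in mock cut tips and from the start of L-Kyn in L-Kyn tips. The order of cutting and L-Kyn is not stated in full in the labels, no strain or pooling of seedlings is named, and nothing says that replicates came from separate plants. P-values therefore measure only how these libraries vary, and that variation may be technical.

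Reads on genes ranged from 1280947 to 4839810 per library, so 3 counts correspond to 0.620 to 2.34 CPM. The columns of the count table fall into 9 libraries followed by 9 others. The first 9 hold every 6 h library and mock uncut replicates 1 and 2, and the last 9 hold every 3 h library and mock uncut replicate 3. The labels do not say what this order stands for. Replicate 2 of the L-Kyn cut 3 h group lay, against its label, closer to L-Kyn uncut tips at 3 h (Spearman correlation over loci 0.940 to 0.975) than to L-Kyn cut 3 h replicate 1 (0.879). For L-Kyn uncut 6 h replicate 1 the title says uncut and another label says cut. Its title was used, and its correlation was 0.951 with the other L-Kyn uncut 6 h library and 0.894 to 0.911 with L-Kyn cut 6 h libraries. The 5 root cap markers summed to 44.6 to 274 CPM in mock uncut tips, so the root cap, the outermost layer of a tip, was measured in uncut tips. Their sum ran from 4.96 to 167 CPM over the 2 libraries labelled L-Kyn cut 3 h. In L-Kyn uncut tips at 3 h it was 56.8 to 140 CPM, and in mock cut tips at 3 h 2.91 to 11.2 CPM.

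A root that loses its tip can rebuild the stem cell niche and the cap from the remaining cells, and auxin is a central signal in that process. Wounding of plant tissue is also known to be followed by remodelling and lignification of cell walls, synthesis of phenylpropanoids and defence proteins, and transcription factors of the WRKY and ERF families. WRKY proteins bind the W-box, a short promoter element. By annotation, 12 members encode cell wall enzymes and wall proteins, with the small membrane protein gene AT4G15610 counted among them. Another 5 encode lipid transfer proteins, 9 transporters, 5 phenylpropanoid and flavonoid enzymes, 8 defence and detoxification proteins and 14 transcription factors. A further 9 are extensin, proline-rich and root hair genes, 2 are hormone enzymes, and 40 have other or no annotation. RefSeq had an entry for 103 members and a symbol for 58 of them. The role groups were drawn after the values were seen.

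The members ranged from 1.5 to 5.84 in their 6 h difference in mock tips (median 1.71, log2(CPM + 1) scale), and from -3.32 to 1.29 at 3 h (median 0.21). The 6 h difference was 5.84 in AT1G04684, a locus to which the reference table gives no entry, and 3.23 in XTH20, the next member. Just outside the 6 h limit lay AT4G20210 with 1.498 at 6 h and 0.63 at 3 h. The member nearest the 3 h limit was CHIL, a chalcone isomerase-like flavonoid gene, with 0.82 at 3 h and 1.65 at 6 h, and just outside lay AT4G30060 with 0.97 at 3 h and 1.94 at 6 h. Most members were weakly expressed. Their mean level in mock cut tips at 6 h ran from 1.84 to 789 CPM with a median of 9.27 CPM. In 55 members it was under 10 CPM and in 4 it was over 100 CPM.

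**Figure D1:**
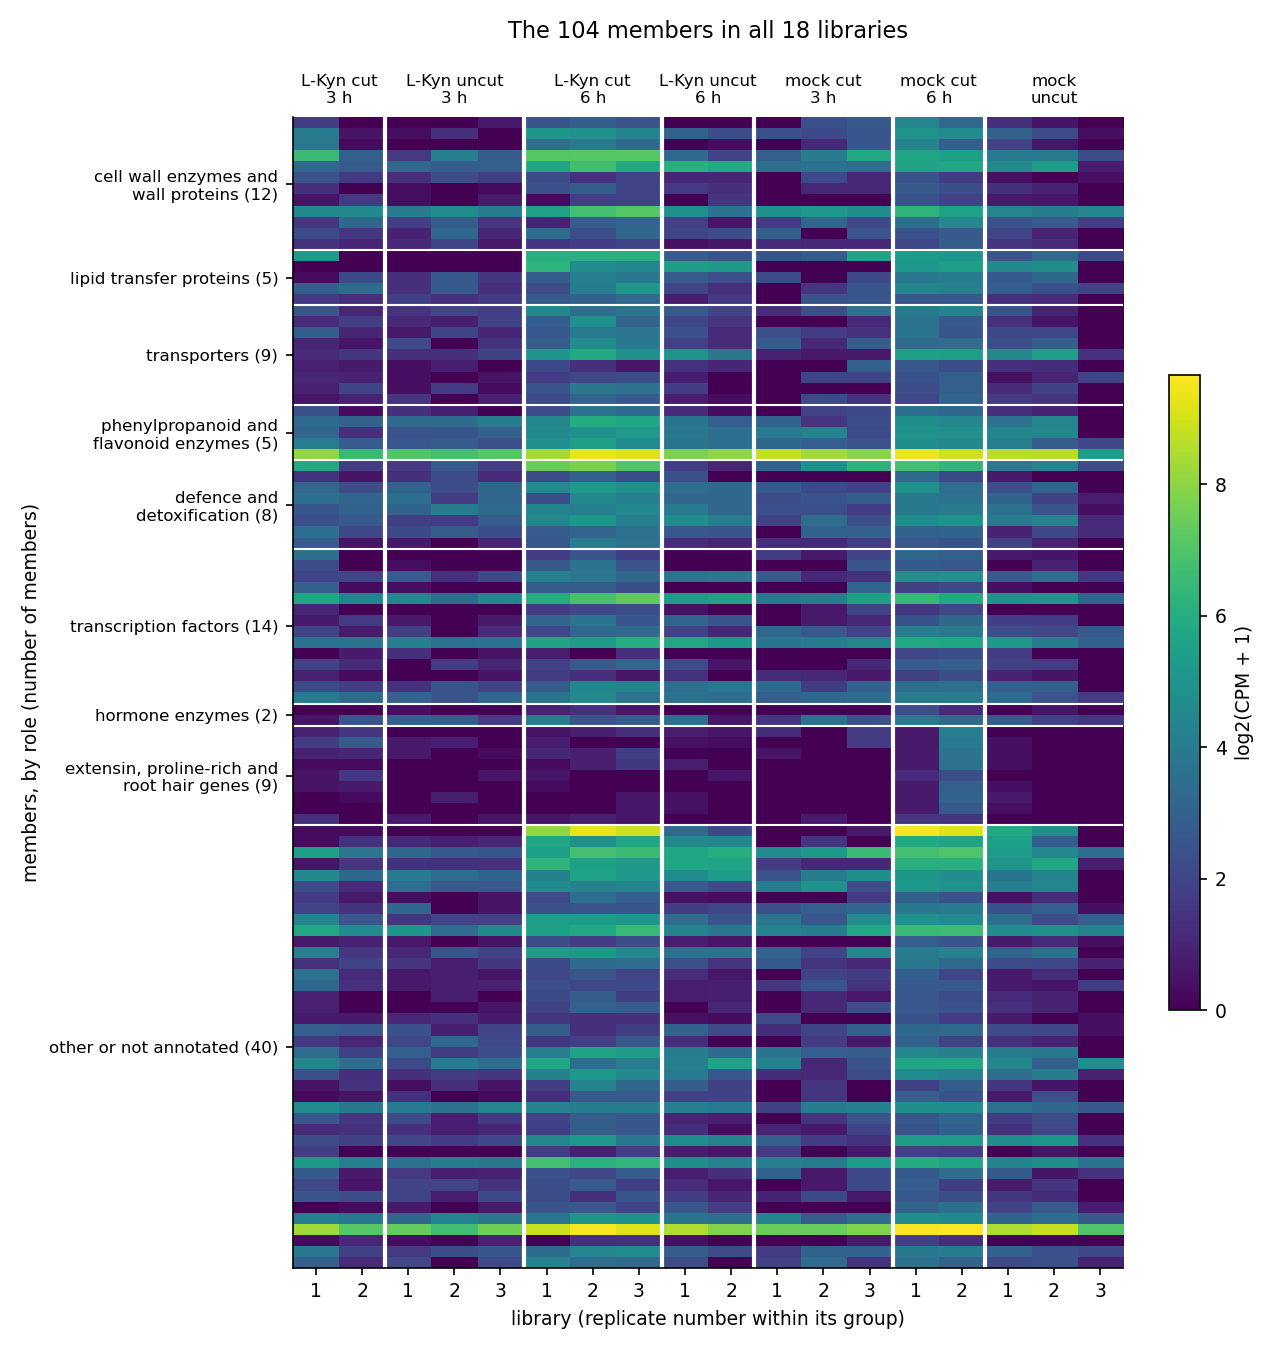
Level of each of the 104 members (rows, grouped by role) in each of the 18 libraries (columns, grouped by cut, L-Kyn and hours), as log2(CPM + 1). The mock cut 6 h and L-Kyn cut 6 h columns are bright in most rows, mock uncut replicate 3 is dark in most rows, and 7 of the 9 extensin, proline-rich and root hair rows are bright in mock cut 6 h replicate 2 alone.

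The label of late induction held for a minority of members once libraries were matched by their place in the table. Mock uncut replicate 3 had 0 counts for 60 of the 104 members, against 21.7% of all loci, and the median member was at 0 CPM there. In mock uncut replicates 1 and 2 the median member was at 3.26 and 3.18 CPM. The criteria favour loci low in mock uncut tips, so part of the excess of 0 counts follows from the choice of members. With mock cut 6 h set against mock uncut replicates 1 and 2, and mock cut 3 h against replicate 3, 29 of the 104 members still met the criteria, and 113 loci met them in all. The median difference was then 0.82 at 3 h and 1.38 at 6 h. Of the members, 61 had a 3 h difference of at least a fraction of 0.5 of their 6 h difference, 63 had a 6 h difference below 1.5, and 49 had both. With this matching most of them did not meet the criteria for late, and they are called members below. The matching reuses the mock libraries that chose the members, and the labels do not say what the position stands for.

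The 29 that stayed included 8 of the 9 extensin, proline-rich and root hair genes, 4 of 14 transcription factors, 3 of 12 wall genes and 0 of 5 phenylpropanoid and flavonoid genes. AT1G04684 stayed, with matched differences of 0.21 at 3 h and 4.07 at 6 h. So did the xyloglucan-remodelling enzyme gene XTH15 (0.55 at 3 h and 1.71 at 6 h), the glutathione and peptide transporter gene OPT6 (0.36 and 2.25), the sulfotransferase gene SOT7 (0.00 and 2.40) and WRKY8 (0.87 and 2.23). Among those that did not stay were the trypsin inhibitor gene TI1 (2.54 at 3 h and 2.52 at 6 h), the amino acid permease gene AAP1 (2.40 and 2.44), the lipid transfer protein gene LTP2 (1.55 and 2.21) and CHIL (3.02 and 0.55). TI1 and AAP1 thus had about the same matched difference at both times, and CHIL a larger one at 3 h. The 3 h values rest on 1 mock uncut library. In 7 of the 9 extensin, proline-rich and root hair genes mock cut 6 h replicate 1 had 1 count, so their 6 h values rest mostly on replicate 2.

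**Figure D2:**
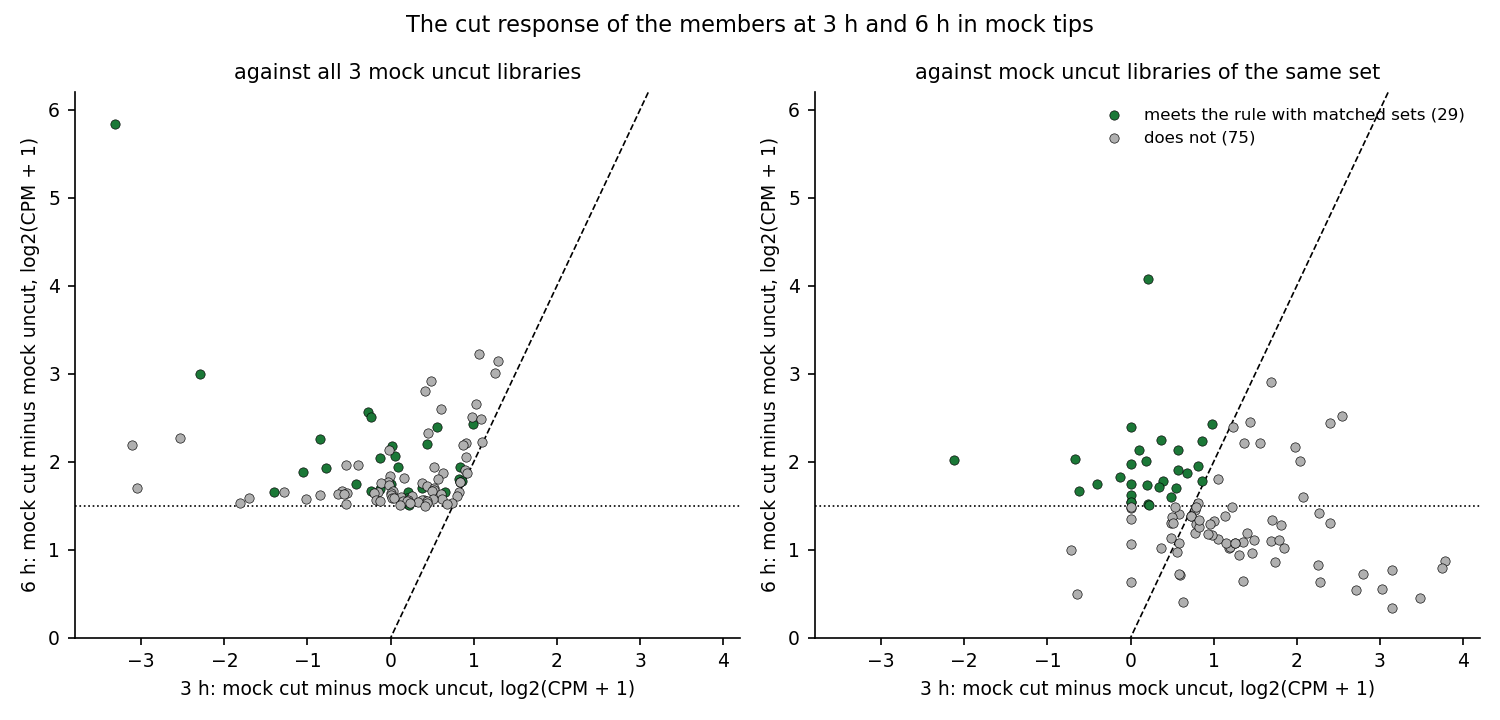
Difference between mock cut and mock uncut tips at 3 h (x axis) and 6 h (y axis) for the 104 members, in log2(CPM + 1), against all 3 mock uncut libraries (left) and against those from the same end of the table (right). The dotted line is the 6 h limit of 1.5 and the dashed line marks a 3 h difference of a fraction of 0.5 of the 6 h one; 29 members (green) meet the criteria in both panels.

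The question put to the L-Kyn libraries, which took no part in choosing the members, was whether cutting raised these genes when auxin synthesis was inhibited. At 6 h most members lay above their uncut level in cut tips, and few passed the test. Summed over the 104 members, the level was 2828, 4322 and 3678 CPM in L-Kyn cut tips at 6 h, against 1463 and 1210 CPM in L-Kyn uncut tips at 6 h. All 3 cut libraries lay above both uncut libraries. The difference between the groups was above 0 in 94 members and below 0 in 10, with a median of 1.17 on the log2(CPM + 1) scale, against a median of 0 over all 22093 loci. It was at least 1 in 60 members, which all loci reached in 7.59% of cases. In 67 of the 104 members every cut library lay above every uncut library, against 16.5% of all loci. In 0 members every cut library lay below every uncut library, against 17.3% of all loci.

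**Figure D3:**
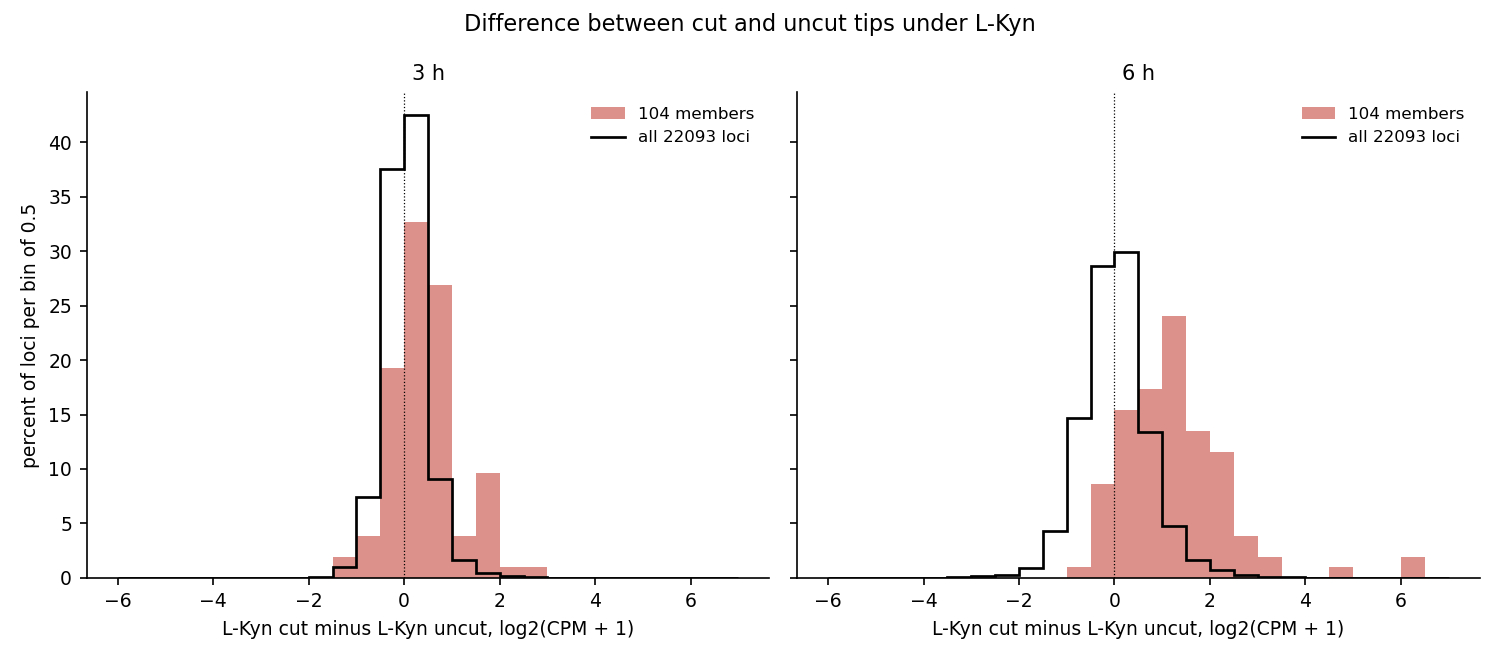
Distribution of the difference between L-Kyn cut and L-Kyn uncut tips at 3 h (left) and 6 h (right) in log2(CPM + 1), as percent of the 104 members (filled) and of all 22093 loci (line) in bins of 0.5. At 6 h the members centre on 1.17 and all loci on 0, and at 3 h the members centre on 0.39 and all loci on 0.02.

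Few of these differences passed the test over all genes. EdgeR's quasi-likelihood test covered 16354 genes, among them 87 members, and 17 members were too low for its filter. It called 4 members higher in L-Kyn cut tips at 6 h, against 0.342% of tested genes, and 0 lower. They were TI1, AT1G04684, AT4G15610 and XTH15. The median log2 fold change was 1.46 over the 87 members and -0.005 over all tested genes, and 38 of the 87 members had an unadjusted p under 0.05, as did 17.3% of tested genes. In a fit of only the compared groups 30 of 80 tested members were higher, against 3.9% of 14607 tested genes. Weak members can pass its filter through the cut group alone, where they are high, which favours calls in that direction. That fit changes both the estimate of spread and the filter. Leaving out replicate 2 of L-Kyn cut 3 h, which goes against its label and is in neither group, also changed both. It left 1 library in that group, so a gene could pass the filter on 1 high library, and 96 members were tested. Their median log2 fold change was 1.46. The 4 calls became 3 without L-Kyn cut 6 h replicate 1, where 21 of 15859 tested genes were higher. They became 0 without L-Kyn cut 6 h replicate 2 or 3. In those fits 0 of 16509 and 0 of 16534 tested genes were called in either direction, so the loss was not particular to the members. Leaving out either L-Kyn uncut 6 h library left 1 in that group. The median log2 fold change over the members was then 2.09 without replicate 1 and 1.39 without replicate 2.

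TI1 (AT2G43510) encodes a small proteinase inhibitor of plant defence. It stood at 169, 211 and 132 CPM in L-Kyn cut tips at 6 h, against 2.38 and 1.04 CPM in L-Kyn uncut tips at 6 h. Its log2 fold change was 6.60 ± 1.18 (SE, edgeR adjusted p = 0.0276). AT4G15610 belongs to UPF0497, the family of small membrane proteins that includes the CASP proteins of the Casparian strip. It stood at 137, 140 and 140 CPM in the cut tips, against 8.83 and 2.85 CPM in the uncut tips (log2 fold change 4.56 ± 1.04 SE, edgeR adjusted p = 0.0490). In both genes the lowest cut library was far above the highest uncut one.

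XTH15 (AT4G14130) encodes an enzyme that cuts and rejoins xyloglucan, the tether between cellulose fibrils. It stood at 46.0, 109 and 137 CPM in L-Kyn cut tips at 6 h, against 27.5 and 11.7 CPM in L-Kyn uncut tips at 6 h. Its log2 fold change was 2.25 ± 0.43 (SE, edgeR adjusted p = 0.0368). AT1G04684 stood at 266, 635 and 490 CPM in the cut tips, against 9.17 and 3.37 CPM in the uncut tips (log2 fold change 6.17 ± 1.09 SE, edgeR adjusted p = 0.0276). The groups did not overlap in either gene. Without L-Kyn uncut 6 h replicate 1 the log2 fold change was 7.23 in TI1, 6.99 in AT1G04684, 5.51 in AT4G15610 and 2.94 in XTH15. Without replicate 2 of that group it was 6.17 in TI1, 5.66 in AT1G04684, 4.00 in AT4G15610 and 1.81 in XTH15.

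**Figure D4:**
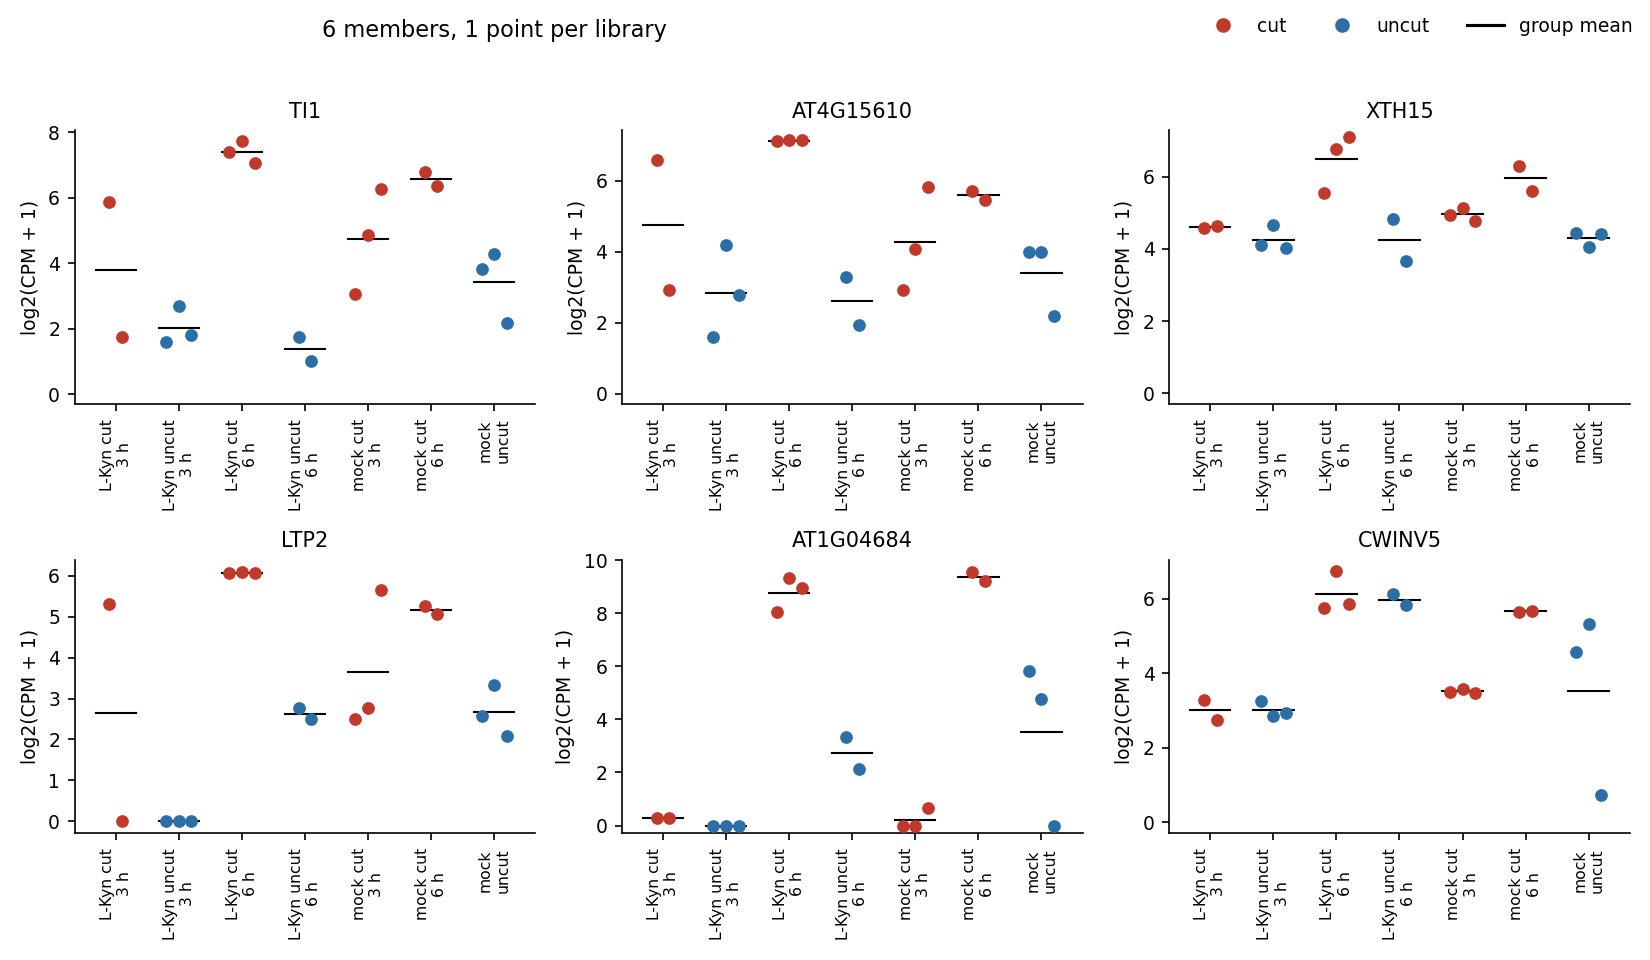
Level of 6 members in every library (points) with the group mean (line), as log2(CPM + 1), in cut (red) and uncut (blue) tips. TI1, AT4G15610, LTP2 and AT1G04684 are high in all L-Kyn cut and mock cut libraries of 6 h, while CWINV5 is high in cut and uncut 6 h libraries alike and in mock uncut replicates 1 and 2.

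The 250 bases before the annotated start are shown for the 3 called members with a RefSeq entry. The W-box core is marked since 5 members are WRKY genes. Sequences and coordinates are those of RefSeq TAIR10.1, read 5′ to 3′ on the gene's strand, with no annotated exon in the window. Capitals mark the W-box core TTGAC, or GTCAA where it lies on the other strand. Longer forms of the element were not searched.
TI1, chr2:18066710-18066959, plus strand: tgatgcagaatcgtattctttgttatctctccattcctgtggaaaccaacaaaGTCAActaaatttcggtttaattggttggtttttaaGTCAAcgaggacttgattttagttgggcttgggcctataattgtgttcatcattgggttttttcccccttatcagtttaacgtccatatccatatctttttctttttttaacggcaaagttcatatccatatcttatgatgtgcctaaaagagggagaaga
AT4G15610, chr4:8908513-8908762, plus strand: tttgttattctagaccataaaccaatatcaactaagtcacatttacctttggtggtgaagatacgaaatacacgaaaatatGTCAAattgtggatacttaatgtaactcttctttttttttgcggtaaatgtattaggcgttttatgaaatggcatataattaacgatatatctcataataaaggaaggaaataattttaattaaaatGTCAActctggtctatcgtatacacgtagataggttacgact
XTH15, chr4:8138393-8138642, minus strand: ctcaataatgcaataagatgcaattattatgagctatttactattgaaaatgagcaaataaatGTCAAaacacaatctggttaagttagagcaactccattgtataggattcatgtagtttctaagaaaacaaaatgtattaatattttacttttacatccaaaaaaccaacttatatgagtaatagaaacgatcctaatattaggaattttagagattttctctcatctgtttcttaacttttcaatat

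The TI1 and AT4G15610 windows hold 2 W-box cores each and that of XTH15 holds 1, while that of LTP2, not shown, holds 0. A W-box core was present on either strand in 51 of 103 members (49.5%) and in 45.0% of 21788 such windows of all loci. The core is thus common in both. The abscisic acid element core ACGTG was present in 30.1% of members and 23.7% of all windows. The as-1 core TGACG (15.5% and 19.2%), the G-box CACGTG (5.83% and 7.10%), the dehydration element core CCGAC (8.74% and 12.7%), the auxin element TGTCTC (11.7% and 10.9%), the GCC-box GCCGCC (1.94% and 1.96%) and the evening element core AATATCT (6.80% and 9.96%) were searched in the same way. TTGACG counts as a W-box core and an as-1 core, and CACGTG as a G-box and an ACGTG core.

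Of the 12 wall members, 12 had a difference above 0 in L-Kyn tips at 6 h, and 9 did not overlap between groups. Over all loci 16.5% did not overlap in this direction, the share to set beside the count of each role group below. Among the wall members 2 were called, XTH15 and AT4G15610, the latter a small membrane protein gene rather than a wall enzyme gene. XTH20 (AT5G48070), a xyloglucan enzyme known from the rejoining of incised Arabidopsis stems, stood at 4.66, 6.25 and 4.49 CPM in the cut tips and at 0 counts in both uncut libraries. That is at least 11.1-fold higher in cut tips, taking 3 counts over the uncut group as the floor, but the gene was not called (edgeR adjusted p = 0.0997). A pair of class III peroxidase genes, whose products oxidise phenolics in the wall, lay in the same direction without a call. AT5G64120 stood at 33.1, 28.9 and 19.4 CPM in cut tips, against 7.48 and 3.89 CPM in uncut tips. AT4G36430 stood at 9.99, 14.1 and 8.98 CPM in cut tips, against 0 and 0.259 CPM in uncut tips. IRX1 (AT4G18780), a cellulose synthase of secondary walls, was too low to be tested, at 0.222, 2.34 and 2.99 CPM in cut tips, against 0 and 1.81 CPM in uncut tips. Over the whole family, 26 XTH genes were in the table and 14 were tested, of which 1 was called higher, XTH15, and 13 had a positive log2 fold change.

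The 5 lipid transfer members, whose products carry lipids towards the cell surface, had 4 members without overlap and 0 calls. LTP2 (AT2G38530) stood at 65.7, 67.1 and 65.8 CPM in L-Kyn cut tips at 6 h, against 5.78 and 4.67 CPM in L-Kyn uncut tips at 6 h. The log2 fold change was 3.60 ± 1.17 (SE, edgeR adjusted p = 0.124). The cut libraries lay within 2 CPM of each other, and the gene was among those called in the fit of only the compared groups. Among the 9 transporter members, 9 had a difference above 0, 7 did not overlap and 0 were called. AAP1 (AT1G58360), which imports amino acids, stood at 20.2, 10.1 and 12.5 CPM in cut tips, against 5.44 and 2.85 CPM in uncut tips. OPT6 (AT4G27730) stood at 6.44, 28.1 and 7.48 CPM in cut tips, against 3.06 and 1.81 CPM in uncut tips. Neither gene overlapped between groups, and the high OPT6 mean came from replicate 2.

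All 5 phenylpropanoid and flavonoid members lay above 0 and did not overlap, and 0 were called. 4CL1 (AT1G51680), the ligase that activates cinnamic acids for lignin and flavonoids, stood at 28.4, 45.3 and 24.9 CPM in L-Kyn cut tips at 6 h, against 12.2 and 10.6 CPM in L-Kyn uncut tips at 6 h. Its log2 fold change was 1.45 ± 0.54 (SE, edgeR adjusted p = 0.172). PRR2 (AT4G13660), a pinoresinol reductase of lignan synthesis, stood at 3.77, 11.7 and 9.47 CPM in cut tips, against 1.36 and 0.259 CPM in uncut tips. CHIL (AT5G05270), at 326, 672 and 565 CPM in cut tips and 215 and 267 CPM in uncut tips, was among the most abundant members. Of 20 genes of the phenylpropanoid and flavonoid list, 17 were tested, 0 were called in either direction and all 17 had a positive log2 fold change, with a median of 1.29.

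The 8 defence and detoxification members all lay above 0, with 5 not overlapping and TI1 called. GSTU11 (AT1G69930), a glutathione transferase, stood at 22.6, 36.7 and 26.9 CPM in L-Kyn cut tips at 6 h, against 9.85 and 8.30 CPM in L-Kyn uncut tips at 6 h (log2 fold change 1.58 ± 0.69 SE, edgeR adjusted p = 0.244). SOT7 (AT1G28170) overlapped, at 3.77, 7.03 and 3.99 CPM in cut tips and 4.08 CPM and 0 counts in uncut tips. Of 3 tested genes of the camalexin and defence list, 2 were called higher and 0 lower, namely TI1 and PRN (AT3G59220), a pirin gene that is no member. The glutathione transferase list had 15 tested genes, 0 calls and 14 positive values, with a median of 1.19.

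Of the 14 transcription factor members, 13 lay above 0, 7 did not overlap and 0 were called. Those named below other than WRKY8, WRKY27 and ERF15 were chosen after their values were seen. The stress-related factor gene WRKY8 (AT5G46350) stood at 5.55, 11.7 and 4.49 CPM in cut tips with L-Kyn at 6 h, against 0 counts in both uncut libraries, at least 14.3-fold higher (edgeR adjusted p = 0.0993). WRKY28 (AT4G18170) stood at 6.22, 6.25 and 3.99 CPM in cut tips and at 0 counts in both uncut libraries, at least 12.8-fold higher (edgeR adjusted p = 0.111). The bHLH gene AT4G20970 stood at 2.22, 4.68 and 2.49 CPM in cut tips and at 0 counts in both uncut libraries, at least 6.11-fold higher. None of the 3 passed the test, although none overlapped. WRKY6 (AT1G62300) was more abundant, at 63.5, 114 and 157 CPM in cut tips and 39.8 and 47.2 CPM in uncut tips. By contrast WRKY27 (AT5G52830) overlapped, at 49.3, 39.8 and 63.3 CPM in cut tips and 52.3 and 34.2 CPM in uncut tips. ERF15 (AT2G31230), of the ethylene response family, overlapped too, at 17.8, 13.3 and 8.48 CPM in cut tips and 12.9 and 13.7 CPM in uncut tips. Of 38 tested WRKY genes, 5 of them members, 0 were called and 25 had a positive log2 fold change.

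The next 3 members, a pair tied to auxin response and a homeobox gene, were named after their values were seen. IAA14 (AT4G14550), a repressor of auxin response that acts in lateral root initiation, stood at 5.99, 21.9 and 18.5 CPM in cut tips with L-Kyn at 6 h, against 9.85 and 12.7 CPM in uncut tips with L-Kyn, with overlap. GH3.3 (AT2G23170), an auxin-inducible enzyme that joins auxin to amino acids, stood at 0.888, 1.56 and 0.499 CPM in cut tips and at 0 counts in both uncut libraries. In mock tips GH3.3 stood at 3.83 and 1.32 CPM in cut tips at 6 h, against 0, 0.455 and 0 CPM in uncut tips. WOX7 (AT5G05770), a WUSCHEL-type homeobox gene of lateral roots, stood at 2.22, 3.12 and 3.99 CPM in L-Kyn cut tips and at 0.340 and 0 CPM in L-Kyn uncut tips. GH3.3 and WOX7 were too low to be tested.

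The 9 extensin, proline-rich and root hair members were mostly high in 1 library. Extensin genes share repeats, so the reads assigned to each copy are uncertain. In 7 of them mock cut 6 h replicate 1 had 1 count, and the high value came from replicate 2. MOP10 (AT5G05500) stood at 0.639 and 16.7 CPM in mock cut tips at 6 h and at 0 counts in all 3 mock uncut libraries. EXT13 (AT5G35190), an extensin gene, stood at 0.639 and 11.8 CPM in mock cut tips at 6 h, against 0.310, 0 and 0 CPM in mock uncut tips. These genes did not recur at that level with L-Kyn. At 6 h MOP10 stood at 0.444, 0.781 and 1.5 CPM in L-Kyn cut tips and 0.680 and 0.519 CPM in L-Kyn uncut tips. EXT13 stood at 1.11, 0.781 and 2.49 CPM in L-Kyn cut tips and at 0 counts in both L-Kyn uncut libraries. RSL4 (AT1G27740), a bHLH factor that sets root hair growth, stood at 0.444, 0.781 and 0.499 CPM in L-Kyn cut tips and at 0 counts in L-Kyn uncut tips. In this group 2 of 9 members did not overlap in L-Kyn tips at 6 h, against 16.5% of all loci, so the group was near that share. The median difference was 0.10, and 1 member was tested, without a call. The 8 root hair and epidermis markers summed to 15.3 and 33.3 CPM in mock cut tips at 6 h and to 2.73 to 8.69 CPM in mock uncut tips, and 1 of the 8 was tested, without a call with L-Kyn at 6 h. Their part in these values was not tested.

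At 3 h the values with L-Kyn depended on 1 library. The summed level of the members was 1436 and 574 CPM in L-Kyn cut tips at 3 h, against 630, 545 and 650 CPM in L-Kyn uncut tips at 3 h. Replicate 1 thus lay above all uncut tips and the library labelled replicate 2 lay among them. The median difference was 0.39 over the members and 0.02 over all loci. In 19 of 104 members both cut libraries lay above all uncut libraries, against 10.3% of all loci. Replicate 1 alone did so in 62 members, against 30.2% of all loci, and the library labelled replicate 2 in 30 members, against 29.3%.

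**Figure D5:**
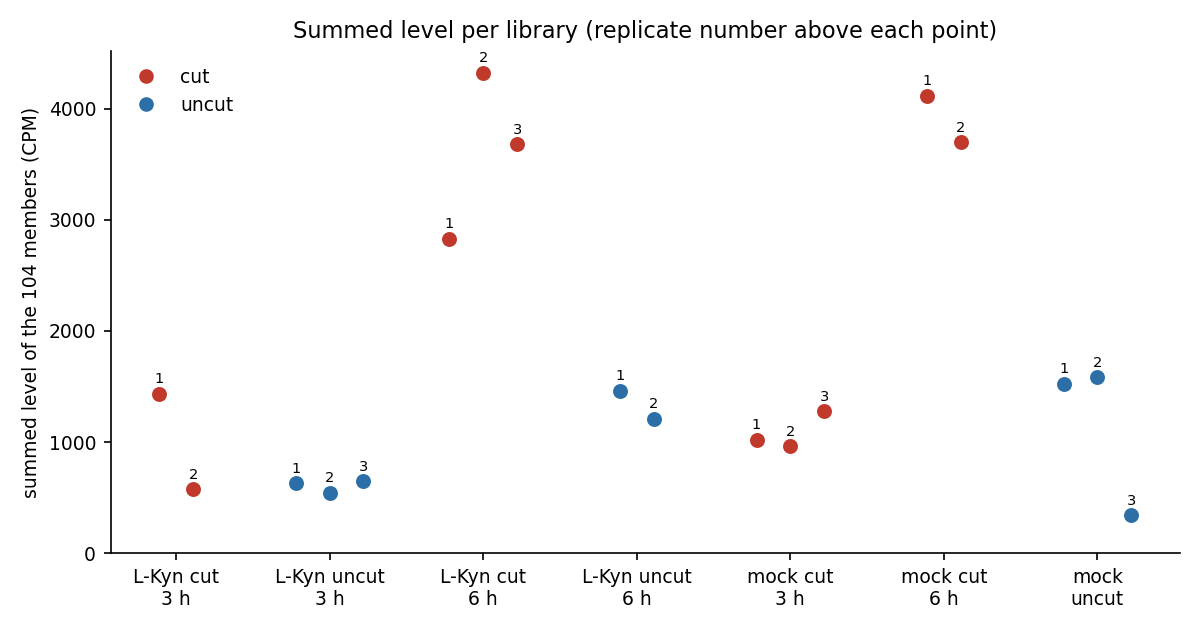
Summed level of the 104 members in CPM in each library, with its replicate number, in cut (red) and uncut (blue) tips. L-Kyn cut tips at 6 h lie between 2828 and 4322 CPM and mock cut tips at 6 h at 4115 and 3697 CPM; L-Kyn cut 3 h replicate 2 lies with the uncut tips at 574 CPM, and mock uncut replicate 3 lies lowest at 342 CPM.

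EdgeR called 0 members and 0 of all genes at 3 h (0% of tested genes), with 17 members and 492 genes at an unadjusted p under 0.05. DESeq2 called 1 member, LTP2, and 48 genes. Without replicate 2 of L-Kyn cut 3 h, the library that goes against its label, edgeR called 10 of 96 members higher, against 1.42% of tested genes, with 1 cut library left that was assumed to vary like the others. Without replicate 1 it called 0, and the median log2 fold change over the members was -0.08, against 0.69 with both libraries. The 10 were TI1, LTP2, AT4G15610, AT5G64120, AT4G36430, AT4G20970, AT4G38410, AT1G74010, AT4G15975 and AT3G19660. TI1 stood at 57.4 and 2.33 CPM in L-Kyn cut tips at 3 h, against 2.01, 5.43 and 2.51 CPM in L-Kyn uncut tips at 3 h. LTP2 stood at 38.4 CPM and 0 counts in the cut libraries and at 0 counts in all 3 uncut libraries. XTH15 stood at 22.9 and 23.8 CPM in cut tips, against 16.1, 24.0 and 15.2 CPM in uncut tips, with overlap.

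Whether the cut response with L-Kyn was larger at 6 h than at 3 h was tested directly. EdgeR called 0 members and 0 genes (0% of tested genes), with 7 members and 787 genes at an unadjusted p under 0.05, and DESeq2 called 0 members and 6 genes. The median over the members was 0.88 and over all tested genes -0.06. XTH15 had a 6 h response that was larger by 1.86 ± 0.58 (log2, SE, edgeR adjusted p = 0.679) and TI1 by 3.22 ± 1.49 (edgeR adjusted p = 0.990). Without L-Kyn cut 3 h replicate 1, TI1 was called. Of the 94 members with a difference above 0 at 6 h, 63 had a 3 h difference under a fraction of 0.5 of it. With replicate 1 as the only cut 3 h library, 38 did. No member therefore passed the test of a larger response at 6 h with all libraries in the fit.

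Uncut tips alone also separated by hours. The lowest L-Kyn uncut 6 h library lay above the highest L-Kyn uncut 3 h library in 35 of 104 members, against 22.2% of all loci. EdgeR called 8 members higher in L-Kyn uncut tips at 6 h than at 3 h, against 1.08% of tested genes, and 0 lower. AT3G29152, a lipid-transfer-type gene, stood at 41.1 and 36.8 CPM in L-Kyn uncut tips at 6 h and at 0 counts in all 3 L-Kyn uncut libraries at 3 h (edgeR adjusted p = 0.0208). CWINV5 (AT3G13784), a cell wall invertase that splits sucrose outside the cell, stood at 69.0 and 56.3 CPM at 6 h, against 8.63, 6.21 and 6.68 CPM at 3 h (log2 fold change 3.18 ± 0.69 SE, edgeR adjusted p = 0.0304). HCAR (AT1G04620), a reductase of chlorophyll turnover, stood at 23.4 and 21.5 CPM at 6 h, against 1.15, 0.776 and 1.04 CPM at 3 h (log2 fold change 4.46 ± 1.09 SE, edgeR adjusted p = 0.0446). WRKY27 stood at 52.3 and 34.2 CPM at 6 h, against 16.7, 11.6 and 11.9 CPM at 3 h (log2 fold change 1.75 ± 0.44 SE, edgeR adjusted p = 0.0483). The other called members were the dehydrin gene AT4G38410, the transporter gene AT5G50520, AT2G24950 and AT4G04650. In the fit of only the compared groups, with its own filter, 26 of 52 tested members were higher, against 12.2% of 15204 tested genes, and 1 was lower. Weak members can pass that filter through the 6 h group alone, which favours calls in that direction. No member was called when any 1 of the 3 L-Kyn uncut 3 h libraries was left out. Over all tested genes 1 was then called higher in each fit, against 176 with all libraries, so the loss was not particular to the members. Leaving out either L-Kyn uncut 6 h library left 1 in that group. The median log2 fold change over the members was then 0.25 without replicate 1 and 0.93 without replicate 2.

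Of these 8 members, 6 followed the ends of the table in cut and mock tips too, all but AT4G38410 and WRKY27. Hours and position in the table cannot be told apart in this comparison. In 11 members every library of the first 9 columns lay above every library of the last 9, against 1.27% of all loci. The mock libraries that chose the members are among these columns, so part of that excess follows from the choice. AT3G29152 stood between 20.4 and 74.8 CPM in all 9 of the first and at 0 counts in all 9 of the last, with 22.6, 26.4 and 0 CPM in the mock uncut libraries. CWINV5 stood at 22.6, 39.1 and 0.649 CPM in mock uncut tips and HCAR at 43.1, 6.37 and 0 CPM, so replicate 3 was the lowest within that group. Neither gene was called between cut and uncut tips with L-Kyn at 6 h. HCAR stood at 50.0, 28.1 and 52.4 CPM in cut tips and 23.4 and 21.5 CPM in uncut tips, without overlap. CWINV5 stood at 52.8, 107 and 57.3 CPM in L-Kyn cut tips and 69.0 and 56.3 CPM in L-Kyn uncut tips, with overlap. The 11 members also included AT1G04684, the flavin monooxygenase family gene FMO (AT1G12200) and OFP8. With a term for the position, estimated from the mock uncut libraries that chose the members and so not independent of them, 0 members were called and their median was -2.39, against 0.77 without it. The 25 green tissue markers summed to 425 and 895 CPM in L-Kyn uncut tips at 6 h and to 110 to 131 CPM at 3 h, and 10 of the 23 tested were called higher. Their part in the members' difference was not tested.

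Against mock tips the L-Kyn values can be described only, as the mock libraries chose the members. Between L-Kyn cut and mock cut tips at 6 h, 35 members lay above and 69 below with L-Kyn, with a median difference of -0.26, against -0.03 over all loci. Uncut L-Kyn tips at 6 h were above mock uncut tips in 68 members and below in 35, with a median of 0.25, against -0.01 over all loci. At 3 h they were above in 33 members and below in 69, with a median of -0.23, against -0.01 over all loci. L-Kyn cut tips at 3 h were above mock cut tips in 63 members and below in 38, with a median of 0.14, against 0.13 over all loci, so the members were near the background there. TI1 stood at 169, 211 and 132 CPM in L-Kyn cut tips at 6 h, against 110 and 82.0 CPM in mock cut tips at 6 h. AT4G15610 stood at 137, 140 and 140 CPM with L-Kyn, against 51.8 and 43.0 CPM in mock. LTP2 stood at 65.7, 67.1 and 65.8 CPM with L-Kyn, against 37.7 and 32.5 CPM in mock. These 3 genes were higher with L-Kyn in every library. XTH20 lay the other way, at 4.66, 6.25 and 4.49 CPM with L-Kyn, against 20.4 and 8.77 CPM in mock. So did the abundant methionine synthase gene MS2 (AT3G03780), named after its values were seen, at 476, 761 and 577 CPM with L-Kyn, against 769 and 809 CPM in mock.

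Of the markers of other cell types, those of the root cap alone had calls between L-Kyn cut and uncut tips at 6 h. The 5 root cap markers summed to 8.59 to 17.3 CPM in L-Kyn cut tips at 6 h, against 193 to 216 CPM in L-Kyn uncut tips at 6 h, and 2 of 5, CEL5 and SMB, were called lower. They summed to 8.94 and 12.3 CPM in mock cut tips at 6 h. In whole tips, fewer cells of a type and less RNA per cell cannot be told apart, and the part of a lost cap in the members' values was not tested. The 7 xylem markers, of which IRX1 is one, summed to 16.9 to 55.4 CPM in L-Kyn cut tips and to 10.4 to 16.0 CPM in L-Kyn uncut tips at 6 h, with 0 of 5 tested called. The 12 measured endodermis and suberin markers summed to 20.4 to 52.3 CPM in cut tips and 12.2 to 23.1 CPM in uncut tips, with 0 of 5 called. The 5 phloem markers summed to a median of 13.5 CPM in cut tips and 9.92 CPM in uncut tips, with 0 of 2 called. Green tissue markers summed to 180 to 484 CPM in cut tips and 425 to 895 CPM in uncut tips, with 0 of 23 called.

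Among the lists that hold no member, the cold and dehydration list had 2 of 10 tested genes called higher in cut tips with L-Kyn at 6 h and 0 lower, namely KIN1 and KIN2. These are near-identical copies whose reads may be shared between them. The xenobiotic (0 of 15), carbon starvation (0 of 7), jasmonate (0 of 8), senescence and cell death (0 of 5) and indole glucosinolate (0 of 10) lists had no call. Their median log2 fold changes were 0.75, 0.87, 0.22, 0.65 and 0.07 in that order, and that of the cold and dehydration list was 1.69, against 1.46 for the members. Lateral root and callus LBD genes were not analysed here.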

How the data were processed

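The authors deposited raw read counts per locus, one table for all 18 libraries, made from 3′ end libraries per the labels' protocols. The submitters' processing notes name Bowtie2, HTSeq, DESeq2 and build TAIR10, with no versions given in the sources used here. Lines that name no gene, 56.6% to 88.5% of a library's total and mostly low alignment quality, were left out. Such filtering can lower genes with near-identical copies. CPM is plain, with a pseudocount of 1 on the log2 scale, and floors cover counting error only. Whether counting used strand is not given.

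The members and gene lists were chosen with earlier results of these data known. The 4 comparisons were contrasts in an edgeR 4.0.16 quasi-likelihood fit (R 4.3.3, limma 3.58.1) that used every library, 1 coefficient per group, TMM scaling, filterByExpr by group and Benjamini-Hochberg adjustment over all tested genes at 0.05. SE is the log2 fold change over the root of the F statistic. The fit was run on simulated data in which all genes shared a common spread and only genes over 10 CPM were changed. Changes in genes at lower levels were thus not covered. Named genes are the 12 members with a symbol and the largest 6 h difference, the 10 largest called and 5 lowest with a symbol at 6 h with L-Kyn, up to 5 called in each other comparison, and members of 16 lists. Others with a symbol were chosen after their values were seen. Symbols, promoters and coordinates came from RefSeq TAIR10.1, matched by locus. Alternatives used DESeq2 1.42.0, and scripts ran in Python 3.11.15 with numpy 2.4.6, pandas 2.3.3 and matplotlib 3.10.9.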

Additional observations from a re-analysis of the deposited data

How the results depend on the processing

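Counts of members called moved with the choice of fit, and most alternatives change the filter, the spread or the method together. For L-Kyn cut against uncut tips at 6 h, the 4 calls became 8 with DESeq2, 30 with only the groups compared, 7 with a term for the position in the table and 1 with a replicate block, and 0 to 12 with 1 library left out. The median log2 fold change of the members stayed positive in all 13 alternatives, between 1.2 and 2.09. At 3 h, the 0 calls became 1 with DESeq2 (48 of 22093) and 1 with no filter (44 of 22093). They stayed 0 with any 1 L-Kyn uncut 3 h library left out. The median over the members ran from -0.076 to 1.07, the 2 ends being the fits that left 1 L-Kyn cut 3 h library. For the difference between 6 h and 3 h, the 0 calls stayed 0 in every alternative that left at least 2 libraries per group. The median stayed positive in all 17 alternatives, between 0.60 and 1.52. For L-Kyn uncut tips at 6 h against 3 h, the 8 calls became 14 with DESeq2, 5 with the filter at a mean of 5 CPM, 27 with only the groups compared (26 higher), 2 with the block, 0 with the position term and 0 to 11 with 1 library left out, and the position term turned the median to -2.39. The replicate numbers pair no samples by design, with 2 shared numbers and correlations of deviations between -0.17 and 0.05.

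Small values turned sign. With 1 library left out, the log2 fold change at 6 h with L-Kyn ran from -0.41 to 0.22 for ERF15, -0.21 to 0.30 for CWINV5, -0.0081 to 0.50 for WRKY27, -0.071 to 0.51 for FMO and -0.082 to 0.13 for VPS37-1. With the block it was 0.19 for ERF15 and -0.0022 for VPS37-1. The criteria that chose the 104 members kept 100 with TMM factors, 16 with log2(CPM + 5), 29 with matched libraries, and 78 to 81 without 1 mock cut 6 h library, the last chosen after seeing the data, as was leaving out replicate 2 of L-Kyn cut 3 h from the 6 h comparisons. The cause of these changes was not tested. Depth limits the 55 members under 10 CPM, where 3 counts are 0.620 to 2.34 CPM.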
